A study of Mus musculus with 5 samples.

Results

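The places occupied by Gata4 in the wild-type adult mouse heart were described from 1 list of regions obtained by chromatin immunoprecipitation and sequencing (ChIP-seq). The members are the regions of the deposited Gata4 list on the autosomes that started at or beyond 3.1 Mb of their chromosome and were narrower than 400 bp. They numbered 1691 of the 1756 regions in the Gata4 list and of the 21703 regions in the 3 lists used here. The Gata4 library came from whole adult hearts of wildtype mice on the FVB/N background, with the antibody Gata4 (C-20). As reference served the Nkx2-5 list, from wildtype hearts of the same background, and the Tbx3 list, from adult FVB/N hearts of the genotype Myh6-MCM;CAG-CAT-TBX3, which carry a Cre driver under the cardiomyocyte promoter Myh6 and a TBX3 transgene. The same rule left 6547 Nkx2-5 and 13011 Tbx3 regions. The Myh6-MCM control library and the p300 library of the series were not analysed here. Each factor had 1 library and no replicate, so the values below describe these lists and no test between libraries was made. The number of animals behind a library is not given in the sources used here.

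Gata4 is a zinc-finger transcription factor that binds DNA at GATA motifs. It is required for the formation of the heart, is still made in adult cardiomyocytes and takes part in their hypertrophic response. It is also made in other cells of the heart, such as endocardial cells, and a whole-heart list cannot assign a region to a cell type. Gata4 is known to bind the homeodomain factor Nkx2-5 and to act with it on shared cardiac genes, whereas Tbx3 belongs to the T-box family and represses working-muscle genes in the conduction system. The positions are those of the genome build mm9. Annotation at hand was for GRCm38, a different build, so genes, promoters, introns and motifs at these positions were not analysed here, and regions are named by position only. For the same reason neither the sequence of any region nor the specificity of the antibody could be examined.

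Gata4 regions were narrow and sparse. Their median width was 149 bp, the middle 50% lay between 119 and 196.5 bp, and 1289 of 1691 (76.2%) were narrower than 200 bp. Only 55 (3.25%) were 300 bp or wider. Together they covered 280.0 kb, or 0.0117% of the span that the lists cover on the autosomes. The Nkx2-5 and Tbx3 lists had similar widths, with medians of 141 and 146 bp. In each of the 3 lists the narrowest region kept was 100 bp wide, and the rule cut each below 400 bp. The range of widths was thus bounded alike in all of them. No read number, height or score is given with the regions, so depth is unknown and a narrow region cannot be ranked against another by enrichment. At the edge of the rule, the widest members measured 399 and 397 bp and the narrowest regions left out for width measured 400 and 401 bp. The lowest start among the members was 3109872, and the highest start among those left out at a chromosome's beginning was 3095669.

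The 5 widest members lay on 4 chromosomes. The first, 399 bp at chr19:53790986-53791384, overlapped an Nkx2-5 region of 234 bp and a Tbx3 region of 249 bp. The next, 397 bp at chr12:71750642-71751038, overlapped an Nkx2-5 region of 192 bp and no Tbx3 region. A member of 396 bp at chr18:55293693-55294088 overlapped neither list, although centres of both lay 0.374 and 0.397 kb away. The member at chr19:36332571-36332960 (390 bp) overlapped an Nkx2-5 region of 181 bp. The member at chr13:5591645-5592032 (388 bp) stood alone, with the nearest Nkx2-5 centre 210.0 kb and the nearest Tbx3 centre 245.0 kb away. Wide Gata4 regions were thus found both together with the other factors and far from them. Of the 20 widest members, all 348 bp or more, 15 overlapped Nkx2-5, 5 overlapped Tbx3 and 5 overlapped neither. Among all 1691 members, 32.0% overlapped Nkx2-5, 20.2% Tbx3 and 58.1% neither.

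Every autosome carried Gata4 regions, but not in proportion to its length or genes. Chromosome 1 had the most, 126 (7.45%, exact 95% interval 6.24 to 8.81%), and chromosome 14 the fewest, 42 (2.48%, 1.80 to 3.34%). All intervals here are exact Clopper-Pearson intervals and cover counting error only. Per Mb of the span covered by the lists, the density was 0.708 over all autosomes. It was highest on chromosome 19, at 1.04, and lowest on chromosome 14, at 0.365. Set against protein-coding gene symbols of each chromosome in the GRCm38 table, chromosome 18 had 14.5 regions per 100 genes and chromosome 14 had 4.94, with a median of 8.69. Chromosome 18 was also the highest by this measure in the Nkx2-5 list (43.2) and the Tbx3 list (84.0). Its gene number, 511, was the lowest of the autosomes and enters all 3 of these ratios. Per Mb, chromosome 18 had 0.863 Gata4 regions, below chromosomes 19 (1.04) and 11 (0.903).

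**Figure D1:**
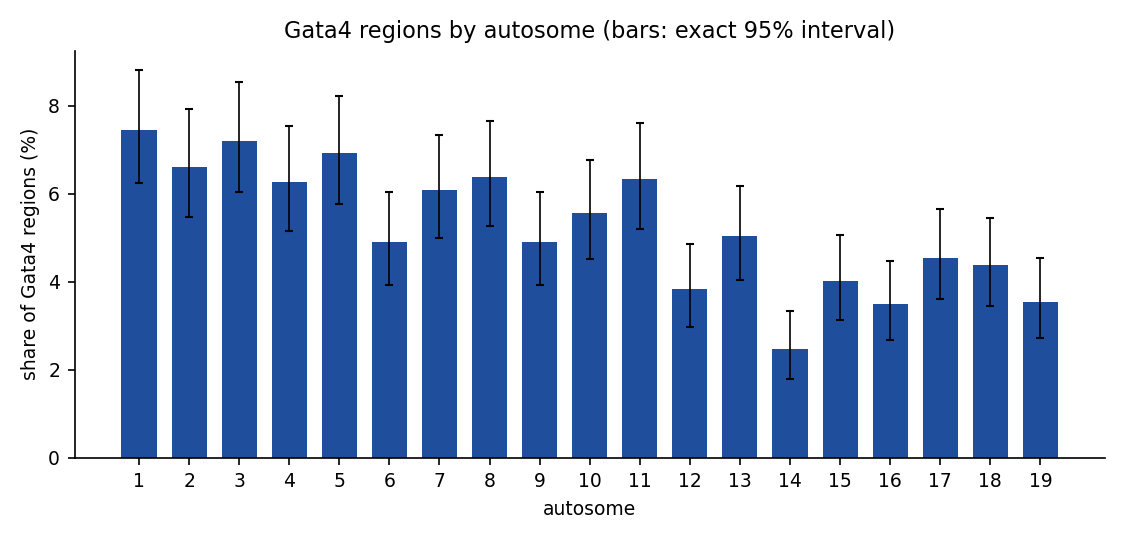
Share of the 1691 Gata4 regions on each autosome, in percent, with exact 95% intervals as error bars. The bar of chromosome 1 is the highest, at 7.45%, and that of chromosome 14 the lowest, at 2.48%.

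The number of Gata4 regions relative to the other lists also varied between chromosomes. For every 100 Nkx2-5 regions there were 40.1 Gata4 regions on chromosome 3 and 17.6 on chromosome 14, with a median of 25.1. For every 100 Tbx3 regions there were 20.1 on chromosome 3 and 9.50 on chromosome 14, with a median of 12.4. Chromosome 14 was therefore poor, and chromosome 3 rich, in Gata4 regions relative to both. Along the chromosomes, the distal 10% of the span held 12.1% of Gata4 regions (10.5 to 13.7%), 14.9% of Nkx2-5 regions (14.0 to 15.8%) and 16.2% of Tbx3 regions (15.6 to 16.9%). The proximal 10% held 8.10% of Gata4 regions (6.85 to 9.51%), against 7.12% and 6.37%. The rule had already taken out regions at the chromosome starts, in unequal parts of the whole lists. These were 32 Gata4 regions (1.82%), 26 Nkx2-5 regions (0.388%) and 11 Tbx3 regions (0.0831%). The proximal shares, and how they differ between the lists, therefore depend in part on the rule. Neither the distal nor the proximal shares were tested between the lists.

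Neighbouring Gata4 regions were mostly far apart. The median gap between neighbours was 549 kb, with quartiles at 116 kb and 1800 kb, and 631 of 1672 gaps (37.7%) were 1 Mb or longer. In the longer lists the median gap was 91.6 kb for Nkx2-5 and 33.4 kb for Tbx3. The median gap was 0.394 of the mean gap in the Gata4 list, 0.253 in the Nkx2-5 list and 0.182 in the Tbx3 list, so that the Gata4 spacing was the least uneven of the 3 by this ratio. A gap of at most 1% of the list's own mean occurred at 9.27% of Gata4 gaps, 10.4% of Nkx2-5 gaps and 15.4% of Tbx3 gaps. The mean gaps were 1390, 362 and 184 kb in that order, so the 1% limit was a different length in each list. Part of the difference in absolute spacing is set by the number of regions in each list. That number can also move both relative measures, and it depends in turn on unknown depth and threshold. The relative measures are therefore not free of list size.

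**Figure D2:**
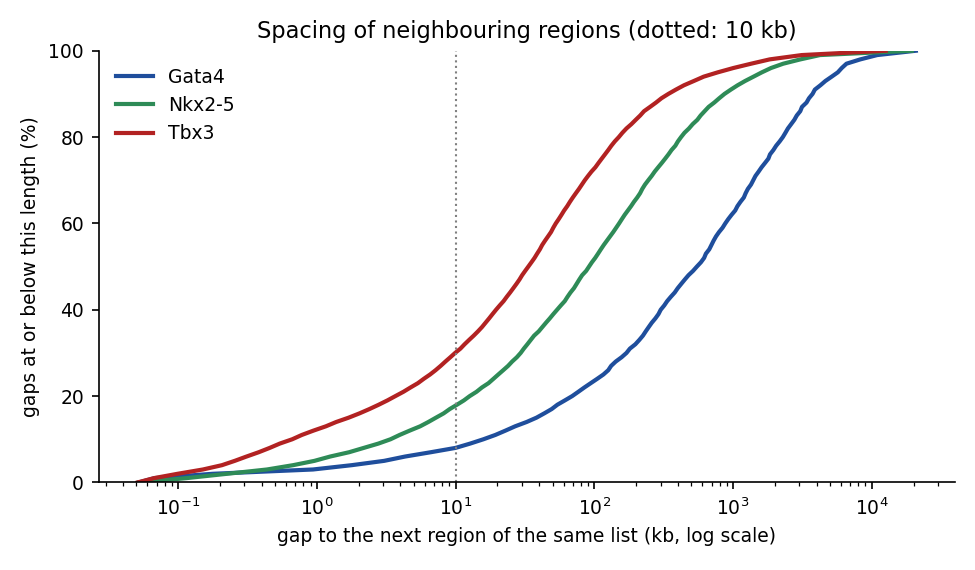
Percent of gaps to the next region of the same list (vertical axis) at or below a given length in kb (horizontal axis, log scale), with 10 kb dotted. The Gata4 curve lies to the right of the others at the median, 549 kb against 91.6 kb for Nkx2-5 and 33.4 kb for Tbx3, while at the shortest gaps it meets them.

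A total of 21 stretches longer than 10 Mb held no member, and those named here were picked after their values were seen. The longest, 20.8 Mb, was on chromosome 7 (31491776 to 52272986), where the Nkx2-5 list had 32 regions and the Tbx3 list 57. On chromosome 1 a stretch of 17.3 Mb (17044241 to 34317001) held 9 Nkx2-5 and 22 Tbx3 regions. On chromosome 14 one of 12.0 Mb (12520296 to 24502115) held 33 Nkx2-5 and 39 Tbx3 regions, whereas one of 12.9 Mb on the same chromosome (86515419 to 99409998) held no Nkx2-5 and 2 Tbx3 regions. The stretches thus differed in how many regions of the other lists they held. Together they made up 11.5% of the span but held only 3.64% of Nkx2-5 and 3.22% of Tbx3 regions. As a set they were therefore sparse in the other lists too. The 21 stretches also held 1 Gata4 region that the rule leaves out.

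A minority of members had company. Another member lay within 10 kb of 241 of the 1691 (14.3%, 12.6 to 16.0%), and the corresponding shares were 31.1% in the Nkx2-5 list and 48.9% in the Tbx3 list. Joining members across gaps of at most 10 kb left 1450 alone and gave 89 pairs, 15 groups of 3, 2 groups of 4 and 1 group of 10. Gaps below 100 bp made up 28 of 1672 in the Gata4 list, 55 of 6528 in the Nkx2-5 list and 261 of 12992 in the Tbx3 list. The smallest gap was 52 bp in the Gata4 and Nkx2-5 lists and 51 bp in the Tbx3 list. Whether such neighbours are separate sites or 1 stretch reported in pieces cannot be told apart.

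The group of 10 was on chromosome 4 and spanned 21533 bp at chr4:147353113-147374645. Its members were 136 to 311 bp wide. Between 147362080 and 147366406 the Gata4 list had 9 regions in 4327 bp, of which 2 were left out for their widths of 401 and 402 bp, and these 9 covered 52.8% of the block. A single member stood 8817 bp before the block, and a pair of 154 and 249 bp began 7761 bp after it. None of the 10 members overlapped an Nkx2-5 or Tbx3 region. The only region of either list inside the span was an Nkx2-5 region at 147359934 to 147360039, 2040 bp from the nearest Gata4 member. This was the largest group in the list and its members made up 10 of the 63 found in groups of 3 or more. Whether they are separate sites, 1 broad stretch, or DNA present in more copies than in the reference genome cannot be told apart from positions alone.

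**Figure D3:**
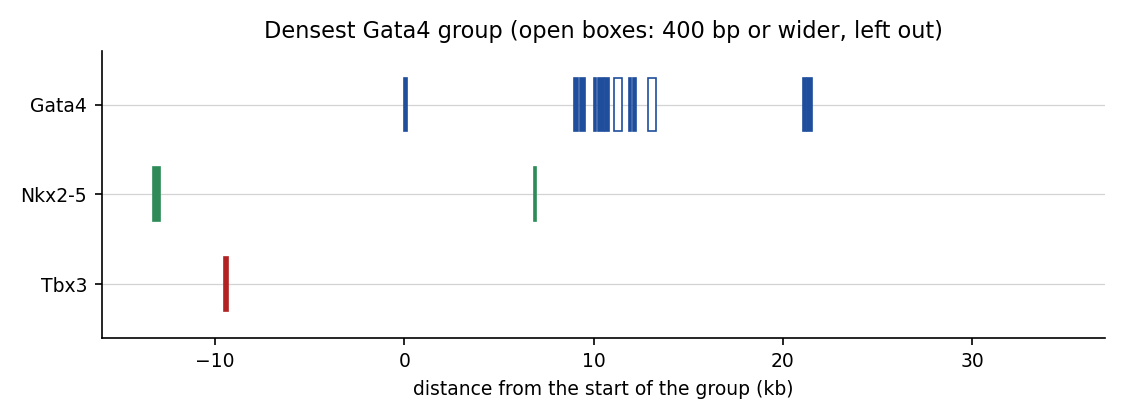
Regions of the 3 lists around the largest Gata4 group, by distance in kb from the start of the group, with members filled and the regions of 401 and 402 bp left open. The Gata4 row holds a block of 9 regions between a single region and a pair, while the Nkx2-5 row holds 1 region within the group and the Tbx3 row none.

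The next groups in size, 2 of 4 members and the 2 with the longest span among 15 of 3 members, differed from it in their company. At chr18:25007149-25023608, 4 members of 145 to 239 bp were spread over 16460 bp. Of these, 2 overlapped both Nkx2-5 and Tbx3, and the other 2 overlapped neither. At chr15:74915967-74917469, 4 members lay within 1503 bp and covered 55.2% of it, with 3 overlapping Nkx2-5 and 2 overlapping Tbx3. Within 10 kb of them lay only 2 Nkx2-5 regions and 1 Tbx3 region, so some members touched the same region. Whether these members are separate sites or 1 stretch in pieces cannot be told apart either. At chr4:45484966-45497015, 3 members lay over 12050 bp, and within 10 kb of them the Nkx2-5 and Tbx3 lists had 6 regions each. At chr15:25845022-25853979, 3 members lay over 8958 bp, 1 of them on an Nkx2-5 region and none on a Tbx3 region. Only 1 other group of 3 or more, at chr17:73322506-73326155, had no member overlapping either list, and no Nkx2-5 or Tbx3 region lay within 10 kb of it. A group of 3 at chr2:98505042-98507490 had a Gata4 region of 491 bp that the rule leaves out within its span, and others of 457 and 748 bp beside it. Likewise, 2 members within chr17:39983409-39984310 lay between the excluded regions of 3383 and 1388 bp. The groups on chromosomes 17 and 2 and these 2 members were picked after their values were seen.

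On a coarser scale, 932 of 2408 windows of 1 Mb (38.7%) held a member, 513 of them exactly 1, and 32 held 5 or more. The windows with the most, 10 each, were picked after their values were seen. One was the window of the chromosome 4 group, with all 10 members in that group. The other, at chr3:101000001-102000000, was of a different kind, since its 10 members fell into 6 separate places. There 5 members overlapped both other lists, 1 overlapped Nkx2-5 only, 1 Tbx3 only and 3 neither. Its widest member, 328 bp at chr3:101355809-101356136, overlapped both lists, as did 203 bp at chr3:101311344-101311546 and 188 bp at chr3:101400202-101400389. The same window held 15 Nkx2-5 and 20 Tbx3 regions.

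More than 50% of the Gata4 regions touched neither reference list by direct overlap. By an overlap of at least 1 bp, 541 of 1691 (32.0%, 29.8 to 34.3%) coincided with an Nkx2-5 region and 341 (20.2%, 18.3 to 22.2%) with a Tbx3 region. Divided into classes, 174 (10.3%) overlapped both, 367 (21.7%) Nkx2-5 alone, 167 (9.88%) Tbx3 alone and 983 (58.1%, 55.7 to 60.5%) neither. When regions within 1 kb of each other counted as shared, 836 (49.4%) had no partner. Seen from the other lists, the shared places were 8.26% of Nkx2-5 regions and 2.64% of Tbx3 regions. As reference, 34.9% of Nkx2-5 regions overlapped a Tbx3 region and 17.7% of Tbx3 regions an Nkx2-5 region. The Tbx3 library differs in genotype as well as in target, and the parts of these in the counts cannot be told apart.

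Where Gata4 and Nkx2-5 regions met, the median pair shared most of the Gata4 region. In 546 overlapping pairs the median shared length was 115 bp, or 73.3% of the Gata4 region, and the centres lay a median of 44 bp apart. In 346 pairs with Tbx3 these values were 103 bp, 60.6% and 64 bp. The pairs were picked by overlap among regions narrower than 400 bp, which bounds the centre distances in advance. Values for regions that overlap at random were not computed. In the pairs with Nkx2-5 the Gata4 region was the wider one in 235 and the narrower one in 311. With Tbx3 these numbers were 161 and 179, and 6 pairs had equal widths.

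The other factors were concentrated close to Gata4 centres and thinned out beyond. An Nkx2-5 centre lay within 50 bp of 301 members (17.8%) and within 200 bp of 556 (32.9%), but only 74 more had their nearest one between 200 and 1000 bp. For Tbx3 the numbers were 146 (8.63%), 361 (21.3%) and 115. Counting every centre, the density of Nkx2-5 centres per kb and per 1000 Gata4 regions was 1780 within 50 bp, 79.8 at 200 to 500 bp, 14.0 at 5 to 10 kb and 7.43 at 50 to 100 kb. The mean of that list over the span was 2.74 in the same unit. For Tbx3 the densities were 863, 94.6, 23.2 and 14.1, against a mean of 5.44. Relative to its list's mean, Nkx2-5 was the higher of the lists in all 11 distance classes. The ratio was 650.0 for Nkx2-5 and 159 for Tbx3 within 50 bp, 29.1 and 17.4 at 200 to 500 bp, 5.12 and 4.26 at 5 to 10 kb, and 2.71 and 2.58 at 50 to 100 kb. In absolute numbers Tbx3 centres, whose list is longer, were the denser ones in each class beyond 100 bp.

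**Figure D4:**
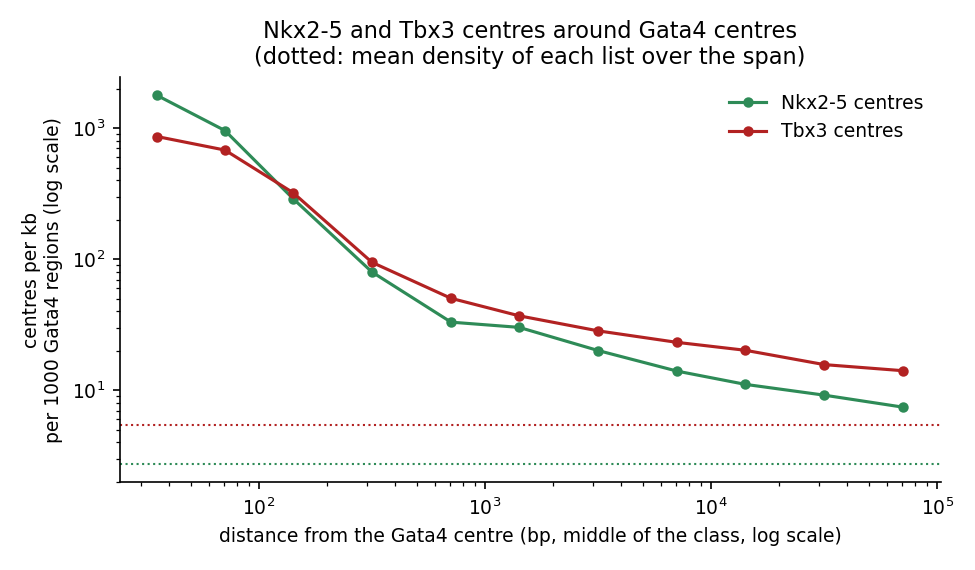
Number of Nkx2-5 and Tbx3 centres per kb and per 1000 Gata4 regions (log scale) by distance from the Gata4 centre in bp (log scale), with each list's mean density dotted. The Nkx2-5 line starts at 1780 and the Tbx3 line at 863, and both are still above their means of 2.74 and 5.44 in the last class. The lines cross in absolute density, but relative to its dotted mean Nkx2-5 stays the higher one in every class.

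Members without overlap were of several kinds. Of the 983, 139 (14.1%, 12.0 to 16.5%) had an Nkx2-5 or Tbx3 centre closer than 1 kb, and 392 (39.9%, 36.8 to 43.0%) had one closer than 10 kb. For 185 (18.8%, 16.4 to 21.4%) the nearest centre of either list was 100 kb or more away, and for 17 it was 1 Mb or more. The most isolated, at chr12:95572954-95573115 (162 bp), was 2.57 Mb from the nearest, and the next, at chr1:143000670-143001007 (338 bp), 2.19 Mb. Both were picked after their values were seen. Median width was 142 bp in members overlapping neither list, 151 bp in those overlapping Tbx3 only, 161 bp in those overlapping Nkx2-5 only and 170.0 bp in those overlapping both.

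The share overlapping Nkx2-5 was higher among wider members, which were divided into 4 classes of about equal number. It was 24.9% (20.8 to 29.3%) for members of 100 to 119 bp, 27.7% for 120 to 149 bp, 31.6% for 150 to 196 bp and 44.0% (39.2 to 48.8%) for 197 to 399 bp. For Tbx3 the share was 17.6% (14.1 to 21.6%) in the narrowest and 25.5% (108 of 423) in the widest class, whose interval begins at 21.4% and overlaps that of the narrowest. A wider region has more room to overlap, and the part of this in the shares was not tested. Counted by centres instead of overlap, an Nkx2-5 centre within 100 bp was found for 21.4% (17.6 to 25.6%) of the narrowest and 37.8% (33.2 to 42.6%) of the widest class. These classes are still divided by width, which may go with other traits of a region that are not given. For Tbx3 these shares were 13.8% (10.7 to 17.5%) and 17.3% (13.8 to 21.2%).

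**Figure D5:**
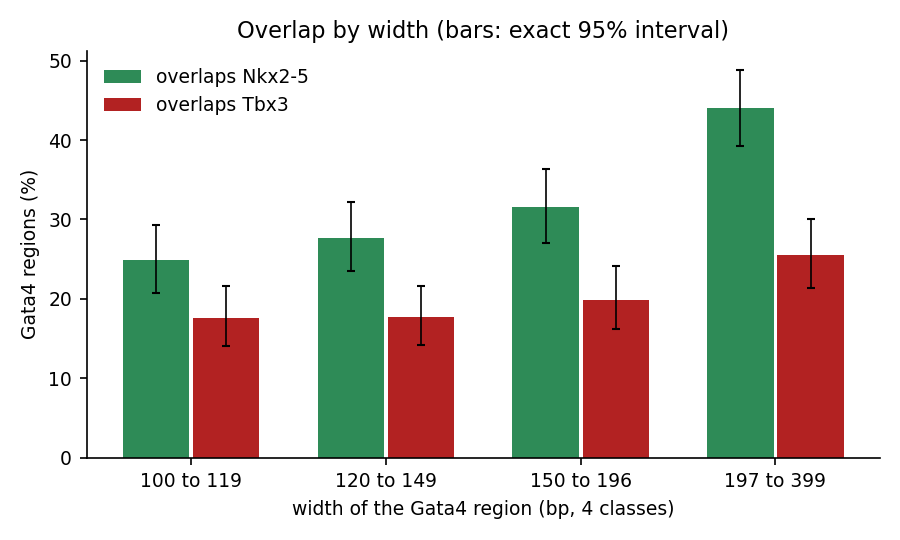
Percent of Gata4 regions that overlap an Nkx2-5 or a Tbx3 region, in 4 classes of width in bp, with exact 95% intervals as error bars. The Nkx2-5 bars go from 24.9% to 44.0%, and the Tbx3 bars go from 17.6% to 25.5%.

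Members in groups overlapped Nkx2-5 in 95 of 241 cases (39.4%, 33.2 to 45.9%), against 446 of 1450 (30.8%, 28.4 to 33.2%) for members alone. Without the chromosome 4 group the share was 41.1% (34.7 to 47.8%). For Tbx3 the shares were 24.9% (19.6 to 30.9%) in groups and 19.4% (17.4 to 21.5%) alone. Members of 1 group lie side by side and may touch the same Nkx2-5 region, so they are not independent, and the intervals are too narrow to that extent. By chromosome, the share overlapping Nkx2-5 ran from 21.7% on chromosome 6 (13.4 to 32.1%) to 48.5% on chromosome 15 (36.2 to 61.0%), with a median of 32.5%. Chromosome 15 had at the same time the lowest share overlapping Tbx3, 8.82% (6 of 68 members, 3.31 to 18.2%), while chromosome 12 had the highest, 30.8% (19.9 to 43.4%). These were picked as the extremes of 19 chromosomes.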

How the data were processed

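The deposited lists give a chromosome, a start and an end per region, without score or read number, and the submitters' processing notes name the build mm9. No label or file header names an aligner, a peak caller, its threshold or the use of a control. Starts were read as counted from 0 and are printed counted from 1. The rule (autosomes, start at or beyond 3.1 Mb, width under 400 bp) was applied alike to the 3 lists. Gaps run from edge to edge and distances from centre to centre. Chromosome spans run from the first to the last region of the 3 lists. Python 3.11.15, pandas 2.3.3 and SciPy 1.17.1 were used, and the counting was tested on simulated data with known answers (20 lists, 0 errors). Named regions are the 5 widest and the 5 largest groups (ties by span), and all others were picked after their values were seen. Members and lists were chosen with earlier results of these data known. The planned work on gene lists, promoters, location in genes, motifs and base composition was not run, since it needs an mm9 annotation or genome.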

Additional observations from a re-analysis of the deposited data

Results flagged for a closer look

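The Gata4 list also holds 65 regions outside the rule. Of these, 7 were on the mitochondrial genome, from position 3 to 16299, and covered 10909 bp. A further 32 began before 3.1 Mb of an autosome, 14 of them on chromosome 9, 10 on chromosome 11, 4 on chromosome 4 and 4 on chromosome 18. Another 7 were on X, 101 to 208 bp wide, and 19 were autosomal regions of 400 bp or more, up to 3383 bp at chr17:39979944-39983326. They are given because the comparisons above do not use them, and without a control list these counts do not show a signal above background. Against the whole files, 5 of the 7 mitochondrial, 9 of the 32 chromosome-start, 0 of the 7 X and 13 of the 19 wide regions overlapped Nkx2-5. The numbers for Tbx3 were 5, 9, 0 and 9. In all, 27 of the 65 (41.5%, 29.4 to 54.4%) overlapped Nkx2-5 and 23 (35.4%, 23.9 to 48.2%) Tbx3. Of the members, 33.1% and 20.8% did so against the same whole files. Regions that the rule leaves out thus overlapped the other lists no less often than members did, and the difference was not tested.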

How the results depend on the processing

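Of 37 alternatives to the counts, 30 stayed within 1.5 times of the reported value and 7 moved further. Several of the 30 add or remove too few regions to move most counts that far. The chromosome 4 group, for example, holds 10 of the 1691 members, and 21 lie within 10 kb of an excluded region. The tally is therefore no measure of stability. The number of members with a neighbour, 241, was 127 with a gap of 2 kb and 503 with a gap of 50 kb. In the wider 50% of each list, which leaves 847 members, 227 overlapped Nkx2-5 (26.8%), 115 Tbx3 (13.6%), 54 both (6.38%) and 559 neither (66.0%). The reported shares were 32.0%, 20.2%, 10.3% and 58.1% in the same order. Lower counts follow in part from the smaller number of members. The reference lists were cut as well, so these shares cannot be compared with those of the width classes above. Counting regions within 1 kb as shared gave 272 in both, and left 836 in neither, which is then 49.4% of the members. Using the whole Nkx2-5 and Tbx3 files gave 560, 351, 188 and 968 in the same order. The 188 include the Gata4 region at chr11:108872991-108873357, which met a Tbx3 region too wide for the rule. Leaving out the chromosome 4 group, leaving out the 21 members within 10 kb of an excluded region, and using whole files were chosen after seeing the data. Promoter, gene and motif alternatives were not run. No paired analysis was possible because each factor has 1 library, and replicates could not be left out. Depth is unknown, so no list length can be weighed.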
